A study of Mus musculus with 6 samples.

Results

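The ubiquitin-conjugating enzymes, or E2 enzymes, were followed through the family of genes named Ube2 followed by a letter. The rule took every gene row annotated as protein-coding whose symbol begins with Ube2 and a lower-case letter. It gave 37 of the 41325 genes in the files. All 37 were listed for every library, although 2 of them had no read in any. The rule itself used names and annotation and no measured value, but the family was chosen with earlier results of these data known. The antisense gene Ube2uos was the only other row with such a name and was left out.

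The series held 6 bulk RNA-seq libraries labelled salivary gland, from ICR mice, an outbred stock. The animals were females, purchased when 10 weeks old, with a 7 day settling period before treatment. All mice, controls included, received 5-fluorouracil (5-FU), an antimetabolite that blocks thymidylate synthase, as intraperitoneal injections of 20 mg/kg, given 2 times a week over 3 weeks. The elemental diet group (3 libraries) was given 1.6 kcal in 0.8 mL per day of Elental, a liquid formula with amino acids in place of protein, by mouth, and the saline group (3 libraries) was given 0.8 mL of saline. Both were given by gavage, 2 times a day on 5 days a week. No group without 5-FU was analysed here, so elemental diet against saline under 5-FU was the 1 comparison. The protocol text names fibroblasts or keratinocytes as the RNA source while the tissue label names a salivary gland, without saying which, and nothing says whether each library was a separate mouse. The p-values therefore measure the spread between these libraries.

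Library totals were 29053287 to 33073125 reads assigned to genes. Salivary acinar markers were low in all libraries: 6 of 12 (Smgc, Pip, Bpifa1, Prb1, Dcpp1 and Dcpp3) had no read, and the water channel gene Aqp5 had 4 reads on elemental diet and 2 on saline. The 3 acinar markers with enough reads to test fell: Amy1 had 297 and 541 reads, Bhlha15 172 and 723, and Dcpp2 20 and 108. All marker lists parted the groups in summed CPM (read counts scaled to a common library size with TMM factors). The acinar list summed to 5.47 to 6.77 CPM on elemental diet and 13.2 to 14.8 on saline. All 10 erythroid markers rose (41976 to 42825 on elemental diet, 2872 to 4554 on saline). All 10 cell division markers rose as well (3800 to 4471 and 150 to 159). All 8 B cell markers fell (815 to 865 and 5872 to 6074), as did all 8 T cell markers (62.3 to 69.3 and 427 to 524) and 5 of 6 plasma cell markers (462 to 515 and 1694 to 1857), while Sdc1 rose. Of 8 interferon response markers 5 fell, Rsad2 rose and 2 did not pass (187 to 189 and 328 to 342). Except among acinar genes, no marker of these lists was without reads. In bulk libraries fewer cells of a type and less RNA per cell cannot be told apart, and the part of these cell mixtures in the results below was not tested.

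Ubiquitin is passed to proteins in a relay. An E1 enzyme activates it, an E2 enzyme carries it on a catalytic cysteine, and an E3 ligase brings the E2 to the substrate. Which E2 takes part sets much of the outcome: some start a chain and others extend it, chains joined through Lys48 or Lys11 of ubiquitin send proteins to the proteasome, and Lys63 chains mostly signal. A few E2 enzymes carry related modifiers, namely SUMO, NEDD8 or ISG15, in place of ubiquitin.

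Most family members were expressed, and most were higher on elemental diet. Of the 37 genes 32 reached 1 CPM or more in each library, and 33 passed the filter on low counts. By edgeR's quasi-likelihood test 24 rose and 8 fell on elemental diet at a Benjamini-Hochberg adjusted p under 0.05, and 1, Ube2z, did not pass. The called share was 97.0% of the tested members, where it was 78.1% of all 18303 genes tested and 80.8% of the protein-coding ones. By direction, 72.7% of the tested members rose, against 38.0% of all genes and 41.8% of protein-coding genes, and 24.2% fell, against 40.2% and 38.9%. At 2-fold or more 10 members rose (30.3%, against 19.1% of all and 19.9% of protein-coding genes) and 4 fell (12.1%, against 23.7% and 20.8%). With library totals in place of TMM scaling, Ube2k, Ube2l3, Ube2v1 and Ube2v2 rose by less than 2-fold (log2 0.75, 0.82, 0.73 and 0.81). The 4 that fell stayed past 2-fold under that scaling. The groups did not overlap in 32 members, as in 81.0% of all genes and 83.3% of protein-coding genes. The median log2 fold change was 0.53 over the members and -0.08 over all genes. Scaling by library totals alone shifted the median of all genes by a further -0.31, to -0.39, and gave 19 members higher and 10 lower. The shares of all genes called were not taken under this scaling, so these 2 counts have no comparison. Of the tested members 29 changed by more than this shift with TMM scaling. Some of them, such as Ube2d3 and Ube2cbp, were nevertheless not called with library totals alone.

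**Figure D1:**
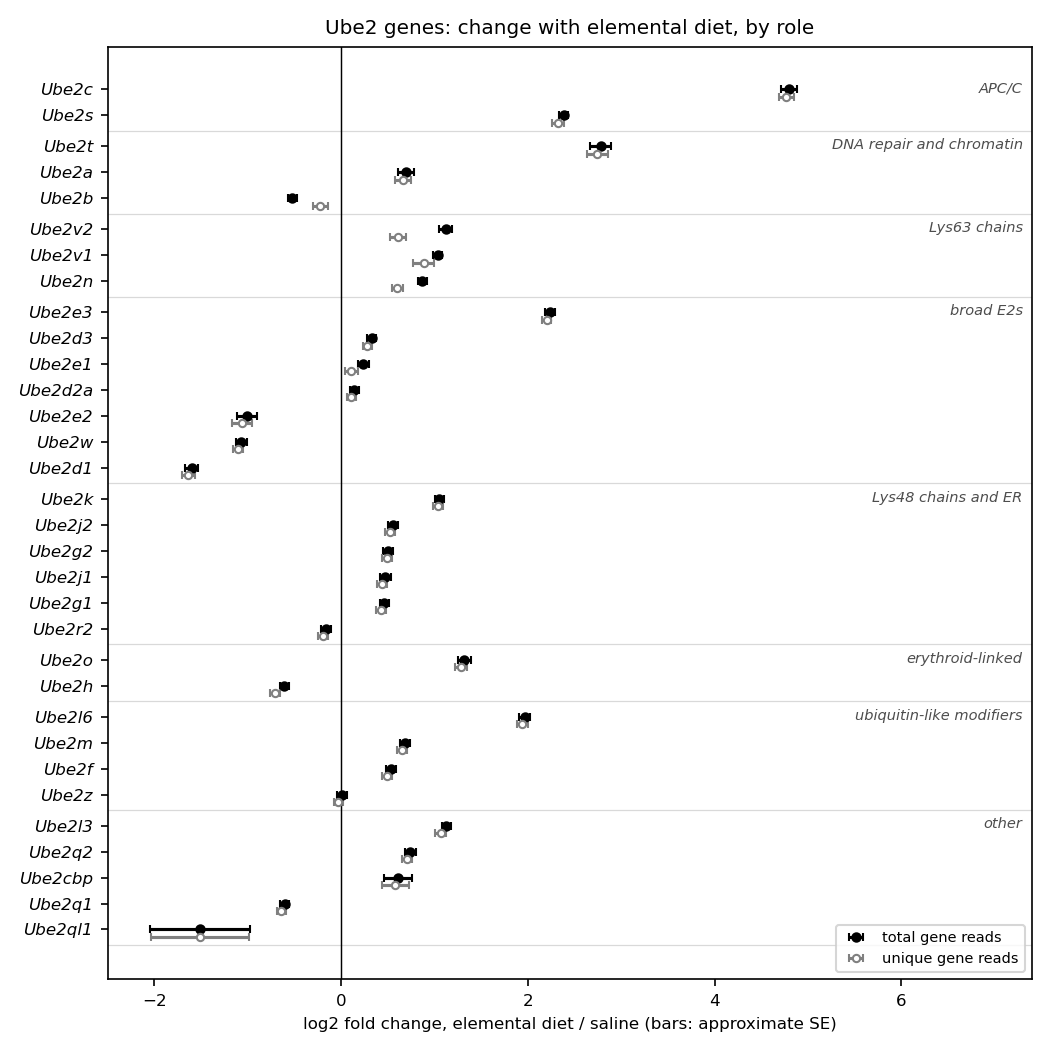
Log2 fold change of 32 tested Ube2 genes, elemental diet over saline, grouped by role, with bars for the approximate standard error; filled points use total gene reads and open points unique gene reads. Ube2c lies farthest right at 4.80 and Ube2d1 farthest left at -1.60, and the 2 kinds of reads part most for Ube2v2, Ube2b and Ube2n.

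The E2 enzymes of the anaphase-promoting complex (APC/C), the ligase that ends mitosis by marking cyclins and securin for destruction, both rose, and the rise of Ube2c was the greatest of the family. Ube2c, which starts chains on APC/C substrates (chromosome 2, 164769898 to 164778822), stood at 346, 341 and 351 CPM in the elemental diet libraries and at 12.7, 10.6 and 14.0 CPM in the saline libraries. Every elemental diet library lay far above every saline library. The rise was 27.8-fold (log2 fold change 4.80, SE 0.08, edgeR adjusted p = 3.1e-14). Ube2s, which extends those chains through Lys11 (chromosome 7, 4794546 to 4812590), stood at 263, 268 and 259 CPM on elemental diet and 51.3, 49.9 and 50.5 on saline. Its rise was 5.22-fold (log2 2.38, SE 0.05, adjusted p = 3.1e-14), with no overlap of the groups. Only 24.7% of Ube2s reads were unique to the gene, and its 3′ end overlaps Rpl28 on the other strand. With unique reads its log2 fold change was 2.32.

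Genes of the complex that these enzymes serve were mostly higher. Of 16 APC/C subunits and activators 15 rose and 1 fell, with a median log2 fold change of 0.86. For comparison with this and the later pathway lists, 41.8% of all protein-coding genes rose and 38.9% fell. The activator Cdc20, which works in mitosis, stood at 234 ± 9.81 CPM (SD, n = 3) on elemental diet and 12.0 ± 0.869 on saline, a 19.4-fold rise (adjusted p = 4.8e-15). Fzr1, the activator of late mitosis and G1, rose 3.28-fold. The subunit that fell, Anapc16, is named after its values were seen and was at -0.23 on the log2 scale. The summed level of the 10 cell division markers was 26.5-fold higher in the same libraries.

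The E2 enzymes of DNA repair and chromatin moved in different directions. Ube2t, which with the ligase Fancl attaches ubiquitin to Fancd2 and Fanci in the Fanconi pathway of crosslink repair (chromosome 1, 134962565 to 134974162), stood at 29.7, 28.3 and 28.8 CPM on elemental diet and 4.97, 3.72 and 3.91 on saline. It rose 6.87-fold (log2 2.78, SE 0.11, adjusted p = 2.8e-11). Ube2a and Ube2b encode the 2 RAD6 enzymes, which act with Rad18 at stalled replication forks and with Rnf20 and Rnf40 on histone H2B. Ube2a rose (44.9 ± 2.75 against 27.6 ± 3.25 CPM, SD, n = 3; log2 0.70, adjusted p = 4.5e-06) and Ube2b fell (86.7 ± 1.31 against 125 ± 2.74; log2 -0.52, adjusted p = 1.6e-07). The Ube2b fall was smaller with unique reads, at -0.22 on the log2 scale (adjusted p = 0.017). Unique reads were 24.2% of its reads, and the gene lies inside the non-coding gene Gm26551 on the same strand.

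Partners of these enzymes were mostly higher. Of 12 Fanconi core and substrate genes 11 rose and Fancg did not pass (median log2 fold change 1.12). Fancd2, the substrate of Ube2t, rose 18.2-fold from 4.87 ± 0.319 to 88.7 ± 7.66 CPM, and Faap24, a core complex subunit, rose 3.59-fold. Of 10 ligases that pair with RAD6 or with Lys63 chains 7 rose, 1 fell and 2 did not pass (median 0.31). Rad18 rose 4.13-fold and Rnf168, which marks chromatin at double-strand breaks, 3.28-fold.

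The upstream sequences of Ube2c, Ube2t and Ube2f, the NEDD8 enzyme, are shown, the only member windows with at least 3 CCAAT matches. All 3 genes rose, as most members did, Ube2f by 1.45-fold. Sequences are from RefSeq, build GRCm38.p6, plus strand, 5′ to 3′, and windows end at the start that RefSeq gives. For Ube2c that start lies inside the gene as the files place it: the printed stretch stops at its last motif, and its last 8 bases, the CHR match among them, lie within the gene coordinates given above. Capitals mark the box CCAAT, the cell cycle homology region (CHR) as TTTGAA, and an E2F-type match as GCGGGAA. Each was searched on both strands, so that ATTGG marks a CCAAT box and TTCAAA a CHR on the other strand. The motifs were chosen after the expression values were seen.
Ube2c, chr2:164769679-164769905: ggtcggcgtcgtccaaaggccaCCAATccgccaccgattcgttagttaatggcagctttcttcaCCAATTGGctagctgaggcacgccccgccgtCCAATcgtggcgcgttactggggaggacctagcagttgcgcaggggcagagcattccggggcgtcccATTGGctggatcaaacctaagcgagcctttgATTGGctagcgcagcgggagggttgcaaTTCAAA
Ube2t, chr1:134962315-134962564: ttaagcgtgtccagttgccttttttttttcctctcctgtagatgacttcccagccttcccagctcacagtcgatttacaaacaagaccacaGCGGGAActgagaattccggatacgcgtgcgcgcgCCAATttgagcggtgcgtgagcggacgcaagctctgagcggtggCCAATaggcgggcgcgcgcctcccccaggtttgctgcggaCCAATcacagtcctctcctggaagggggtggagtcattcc
Ube2f, chr1:91250054-91250303: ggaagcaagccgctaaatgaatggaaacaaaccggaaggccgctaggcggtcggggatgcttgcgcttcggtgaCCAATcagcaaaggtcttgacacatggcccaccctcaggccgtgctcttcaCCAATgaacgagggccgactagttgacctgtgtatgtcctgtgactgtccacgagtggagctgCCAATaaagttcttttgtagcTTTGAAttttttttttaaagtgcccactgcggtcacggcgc

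Ube2c held 6 CCAAT matches, 2 of which overlap each other on opposite strands, and 1 CHR match. Ube2t held 3 CCAAT matches and 1 E2F-type match, and the printed window of Ube2f held 3 CCAAT matches and 1 CHR match. At least 3 CCAAT matches occurred in 2.79% of all 32851 upstream windows of 250 bases, and in 3 of the 41 windows of the 30 members in the RefSeq table. A CHR match occurred in 16.0% of all windows, a CCAAT match in 33.8% and an E2F-type match in 3.82%. Among member windows these were 4, 9 and 7 of 41. The RefSeq window of Ube2s, which lies wholly inside the gene as the files place it, held none of the 3 motifs. Nor did those of Ube2l6 and Ube2k, which also rose. The 7 windows with an E2F-type match belonged to Ube2a, Ube2j1, Ube2t and Ube2v1, which rose, and to Ube2e2, Ube2h and Ube2q1, which fell. Besides Ube2c and Ube2f, a CHR match lay upstream of the untested Ube2d2b and of Ube2z, which did not pass. A link between matches and fold changes was not tested. A match describes the letters only.

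**Figure D2:**
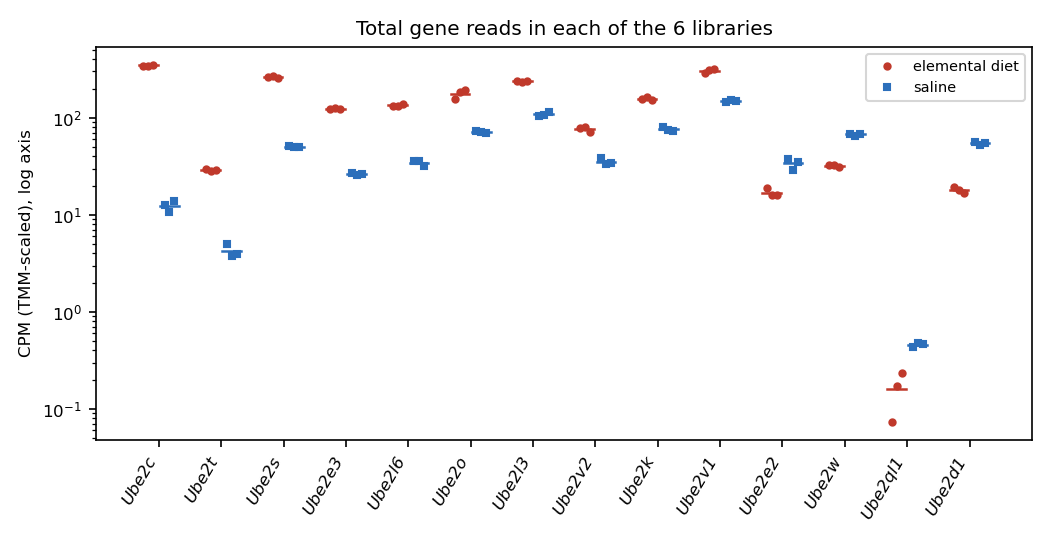
CPM of total gene reads (TMM-scaled, log axis) in each library for the 14 Ube2 genes called at 2-fold or more, ordered by fold change; points are libraries and short lines are group means (n = 3). The 10 genes on the left are higher in every elemental diet library and the last 4, Ube2e2, Ube2w, Ube2ql1 and Ube2d1, are lower in every one, with Ube2c at 341 to 351 against 10.6 to 14.0.

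The genes for Lys63 chains rose together. UBE2N builds these chains only when paired with UBE2V1 or UBE2V2, which have the E2 fold without the catalytic cysteine. Ube2v1 stood at 289, 311 and 320 CPM on elemental diet and 146, 152 and 150 on saline, a 2.05-fold rise (log2 1.04, SE 0.05, adjusted p = 2.2e-10). Ube2v2 stood at 78.7, 79.7 and 71.1 CPM against 38.1, 33.0 and 34.5 (log2 1.12, SE 0.07, adjusted p = 2.0e-09). Ube2n, the catalytic partner, stood at 148 ± 2.83 against 80.7 ± 1.77 CPM (log2 0.87, adjusted p = 6.1e-10). In all 3 genes the groups were apart.

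Most reads of these 3 genes were not unique to them. Unique reads made up 4.64% for Ube2v1, which overlaps the protein-coding gene Gm20431 on the same strand, 31.4% for Ube2v2 and 36.7% for Ube2n. With unique reads alone all 3 still rose, by log2 0.89 for Ube2v1, 0.61 for Ube2v2 and 0.60 for Ube2n. In the family as a whole 7 members had under 50% unique reads and 25 had over 90%. Of the 32 genes called with total reads 31 were called in the same direction with unique reads, and the exception was Ube2e1. With unique reads 79.9% of all genes were called, 38.8% higher and 41.1% lower.

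Among the broadly acting E2 enzymes, which serve many ligases, close relatives moved in opposite directions. Ube2e3 (chromosome 2, 78868124 to 78921293) stood at 122, 125 and 123 CPM on elemental diet and 26.8, 25.6 and 26.1 on saline, a 4.71-fold rise (log2 2.24, SE 0.05, adjusted p = 8.4e-14). Its relative Ube2e2 stood at 18.9, 15.9 and 16.0 CPM against 38.0, 29.1 and 35.1, a 2.01-fold fall (log2 -1.01, SE 0.11, adjusted p = 1.5e-06). Most Ube2e2 reads of the saline group lay in introns (62.5%, against 48.3% on elemental diet), and with exon reads only the log2 fold change was -0.66. Ube2e1, the remaining gene of this subfamily, was at 63.7 ± 4.09 against 54.0 ± 2.72 CPM and passed with total reads (log2 0.24, adjusted p = 0.0031), but not with unique reads (adjusted p = 0.15), and its sign turned under upper quartile scaling, library totals and intron reads.

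The Ube2d subfamily, the E2 enzymes most often paired with RING ligases, changed most in Ube2d1. Ube2d1 (chromosome 10, 71254980 to 71285262) stood at 19.2, 17.9 and 16.9 CPM on elemental diet and 56.3, 52.8 and 54.7 on saline. This was a 3.03-fold fall (log2 -1.60, SE 0.07, adjusted p = 3.5e-11), the greatest among the 8 genes that fell. Changes in the other expressed members were small. Ube2d3 stood at 368, 361 and 383 CPM against 289, 300 and 296 (log2 0.33), a rise that was no longer called with upper quartile scaling or library totals. Ube2d2a stood at 206 ± 5.49 against 186 ± 3.13 CPM (log2 0.14, adjusted p = 0.011), and under those 2 scalings it was called lower. Ube2d2b, an intronless gene inside Evi5, had 10 reads on elemental diet, of which 10.0% were unique, and 0 on saline, and Ube2dnl1 and Ube2dnl2 had no read. At these depths a count of 0 allows up to 0.0907 to 0.103 CPM per library, for counting error only. This limit uses library totals without TMM scaling, unlike the other CPM values. Ube2w, which attaches ubiquitin to the N terminus of proteins, stood at 32.6, 33.0 and 31.0 CPM against 68.4, 65.0 and 68.8 (log2 -1.07, SE 0.06, adjusted p = 4.8e-10), with no overlap.

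Of the 6 E2 genes for Lys48 chains or degradation from the endoplasmic reticulum 5 rose and 1 fell. Ube2k, which makes Lys48 chains, stood at 154, 166 and 154 CPM on elemental diet and 79.9, 74.8 and 73.4 on saline, a 2.08-fold rise (log2 1.05, SE 0.05, adjusted p = 2.8e-10). Ube2g1, Ube2g2, Ube2j1 and Ube2j2, the last 2 anchored in the membrane of the endoplasmic reticulum, rose by log2 0.46, 0.51, 0.48 and 0.56. Ube2r2, a relative of Cdc34 that serves cullin-RING ligases, was at 163 ± 6.40 against 182 ± 8.84 CPM (log2 -0.16, adjusted p = 0.014), and this call was lost with RLE size factors (adjusted p = 0.067), with DESeq2 (adjusted p = 0.10) and without elemental diet library 3 (adjusted p = 0.082). Cdc34 itself, outside the name rule, rose 3.25-fold from 41.6 ± 1.12 to 135 ± 8.10 CPM. Of 10 ligases and partners at the endoplasmic reticulum 5 rose, 4 fell and Derl2 did not pass (median log2 fold change 0.16). This is near the shares over all protein-coding genes, 41.8% higher and 38.9% lower. The ligase genes Rnf139 and March6 rose 2.18-fold and 2.01-fold.

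The 2 members best known from maturing red cells moved in opposite directions. UBE2O marks ribosomal and other proteins for removal in reticulocytes, and UBE2H is the partner of the CTLH ligase and accumulates as erythroid cells mature. Ube2o (chromosome 11, 116537740 to 116581447) stood at 157, 184 and 192 CPM on elemental diet and 72.5, 71.2 and 69.8 on saline, a 2.50-fold rise (log2 1.32, SE 0.07, adjusted p = 8.9e-10). Ube2h (chromosome 6, 30211289 to 30304539) stood at 90.3, 85.8 and 88.9 CPM on elemental diet and 140, 133 and 130 on saline. It was lower in every elemental diet library, a 1.52-fold fall (log2 -0.61, SE 0.05, adjusted p = 6.5e-08), and stayed called lower under each of the 15 alternatives, from -0.91 to -0.55. The summed erythroid markers were 12.1-fold higher in the same libraries.

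Genes of the CTLH ligase were mostly higher. Of 11 genes of this ligase 7 rose, 2 fell and 2 did not pass (median log2 fold change 0.41), where 41.8% of all protein-coding genes rose and 38.9% fell. Ranbp10 rose 4.58-fold, from 70.9 ± 6.23 to 325 ± 30.3 CPM, and Gid8, a scaffold subunit, 3.52-fold. Those that fell, Rmnd5b and Ranbp9, were at -0.15 and -0.25 and are named after their values were seen. For Rmnd5a, the ring subunit paralogous to Rmnd5b, the log2 fold change was 0.01 (adjusted p = 0.88).

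Of the 5 E2 enzymes for related modifiers 4 rose. Ube2l6, the E2 of ISG15 (chromosome 2, 84798828 to 84810335), stood at 132, 134 and 139 CPM on elemental diet and 35.6, 35.8 and 32.2 on saline, a 3.91-fold rise (log2 1.97, SE 0.06, adjusted p = 7.4e-13). Interferon is the classic inducer of the ISG15 pathway, and the summed interferon response markers went the other way, at 0.558 times the saline level. Within the ISG15 pathway list 4 of 5 genes rose and Usp18, the protease that removes ISG15, did not pass (median log2 fold change 0.19). Isg15 rose 1.89-fold to 14.4 ± 1.64 CPM and Herc6, the mouse ISG15 ligase, 1.78-fold, while Uba7, its E1, was at log2 0.17.

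Changes in the NEDD8 enzymes were smaller. Ube2m and Ube2f, which load NEDD8 onto cullins, stood at 121 ± 5.95 against 75.0 ± 1.80 CPM and 61.5 ± 1.19 against 42.6 ± 0.458 (log2 0.69 and 0.53, adjusted p = 2.5e-08 and 4.2e-07). Of 12 NEDD8 pathway genes 9 rose, 1 fell and 2 did not pass (median 0.57), with Cops5, which removes NEDD8 from cullins, at 2.62-fold and the E1 subunit gene Uba3 at 1.87-fold. Of 16 SUMO pathway genes 13 rose and 3 fell (median 0.46), and the subunits of the SUMO E1, Uba2 and Sae1, rose 2.65-fold and 2.10-fold. Ube2z, which takes ubiquitin or FAT10 from the E1 Uba6, was at 91.6 ± 5.19 against 91.1 ± 0.564 CPM, with overlapping groups. Its log2 fold change was 0.01 with an approximate 95% interval of -0.10 to 0.11 (adjusted p = 0.90), and it was called lower under upper quartile scaling and library totals.

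Of the remaining members, Ube2l3, the E2 of Parkin-type and HECT ligases, stood at 237, 236 and 240 CPM on elemental diet and 105, 108 and 114 on saline. It rose 2.18-fold (log2 1.12, SE 0.05, adjusted p = 4.6e-11), and with its 27.0% of unique reads the log2 value was 1.07. Ube2q1 and Ube2q2, paralogs with a long N-terminal extension, went apart: Ube2q1 fell from 127 ± 0.249 to 83.5 ± 0.573 CPM (log2 -0.61) and Ube2q2 rose from 49.2 ± 1.78 to 82.2 ± 5.00 (log2 0.74). Ube2ql1 had 2, 5 and 6 reads on elemental diet and 15, 16 and 15 on saline. Its log2 fold change of -1.51 (SE 0.53, adjusted p = 0.019) rested on these few reads and was not called with DESeq2 (adjusted p = 0.11) or without elemental diet library 1 (adjusted p = 0.084). It was also lost without elemental diet library 2 (adjusted p = 0.053), saline library 2 (adjusted p = 0.056) or saline library 3 (adjusted p = 0.051). Ube2cbp, an older symbol of the ligase gene Ube3d and so no E2 in spite of its name, was at 6.50 ± 0.547 against 4.26 ± 0.180 CPM (log2 0.61, adjusted p = 0.0022), a call lost with upper quartile scaling and library totals. Ube2u had 6 reads on elemental diet and 11 on saline and was not tested.

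Upstream of the E2 enzymes, 5 of 9 E1 genes rose, 1 fell and 3 did not pass (median log2 fold change 0.17), and all 4 ubiquitin genes rose (median 0.46). Over all protein-coding genes 41.8% rose and 38.9% fell. Of 8 genes with an E2-like fold outside the name rule 4 rose, 3 fell and 1 did not pass (median 0.22), with Cdc34 at 3.25-fold and Aktip at a 2.17-fold fall. Of the 3 subunits of the linear chain ligase, a partner of UBE2L3, Sharpin and Rnf31 fell (log2 -0.51 and -0.45) and Rbck1 rose (log2 0.18).

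Levels between genes were compared in the authors' deposited TPM, which divides exon reads by exon length. The members summed to 2556 ± 8.69 TPM on elemental diet and 1890 ± 20.8 on saline (SD, n = 3). Without Ube2c, Ube2s and Ube2t the sums were 2079 ± 16.9 and 1838 ± 20.7 TPM. With elemental diet Ube2c held the top rank at 330 ± 7.28 TPM, 12.9% of the family sum, and on saline it ranked 27th at 15.9 ± 2.09 TPM, 0.840% of the sum. Ube2v1 ranked 2nd in both groups (278 ± 11.1 and 177 ± 3.98 TPM). Only 4.64% of its gene reads were unique, and with unique reads it stood at 15.7 ± 0.445 and 8.50 ± 0.771 CPM. The unique share was also low for Ube2s (24.7%), Ube2b (24.2%) and Ube2l3 (27.0%), so the ranks of these genes depend on shared reads. Ube2d2a led on saline at 224 ± 3.09 TPM and was 3rd on elemental diet at 197 ± 2.48; TPM carries no composition scaling, and its direction there is opposite to that in CPM. Ube2l6 rose from rank 14 to rank 4 (56.1 ± 4.06 to 169 ± 3.70 TPM). Several neighbours in this order differed by less than their spread, so ranks are approximate. Examples are Ube2s and Ube2m on elemental diet (134 ± 2.86 and 130 ± 7.28 TPM) and Ube2r2 and Ube2b on saline (134 ± 6.71 and 131 ± 3.24 TPM). On saline Ube2c lay within its spread of Ube2v2 (15.2 ± 1.22 TPM), and Ube2l6 close to Ube2l3 (61.1 ± 2.26 TPM).

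**Figure D3:**
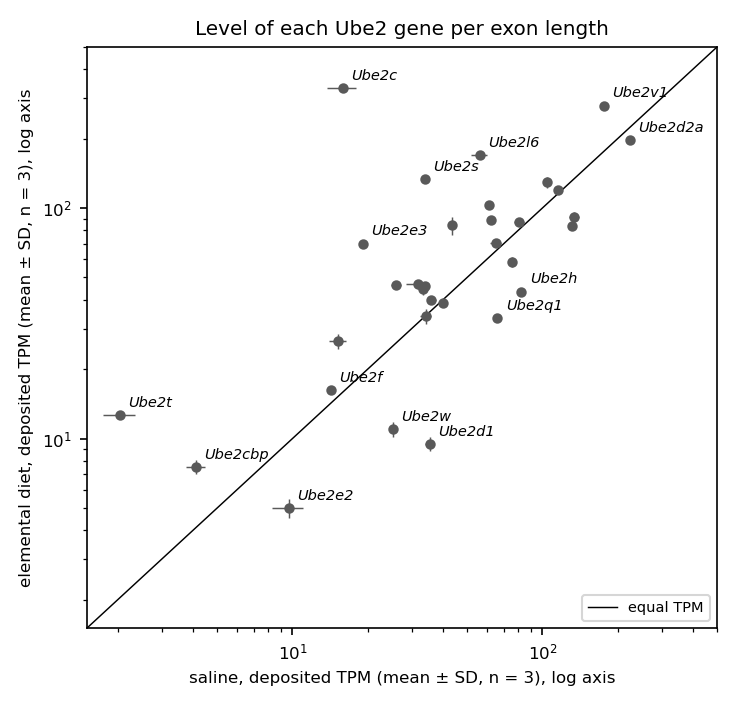
Mean deposited TPM of each Ube2 gene above 1 TPM in both groups, saline on the horizontal and elemental diet on the vertical log axis, with SD bars (n = 3) and a line of equal TPM. Ube2c lies highest above the line (330 against 15.9 TPM) and Ube2d1 farthest below it (9.46 against 35.4 TPM).

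Reads in exons and in introns were also compared, since introns held 8.39% to 8.82% of reads on elemental diet and 13.7% to 14.4% on saline. In 31 of the 33 tested members the intron share was higher on saline. Intron reads could be tested for 32 members, of which 16 were called higher and 7 lower, where 65.8% of all genes were called, 32.9% in each direction. With exon reads 79.3% of all genes were called. The call was the same in direction for exon and intron reads in 22 members. The intron value was below the exon value in 26 of 32 members. Ube2c rose in both, by log2 4.68 (SE 0.08) in exons and 5.37 (SE 0.15) in introns. Ube2d1 fell in both, at -1.61 and -1.70. Ube2e1 was the only member called in opposite directions, at 0.29 in exons and -0.34 in introns (adjusted p = 0.014). For Ube2a, Ube2cbp, Ube2d2a, Ube2d3, Ube2j1, Ube2j2, Ube2r2 and Ube2z, among others, intron reads gave no call. The intron read share of Ube2a was 10.2% on elemental diet and 25.3% on saline, and that of Ube2cbp was 21.3% and 50.7%.

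**Figure D4:**
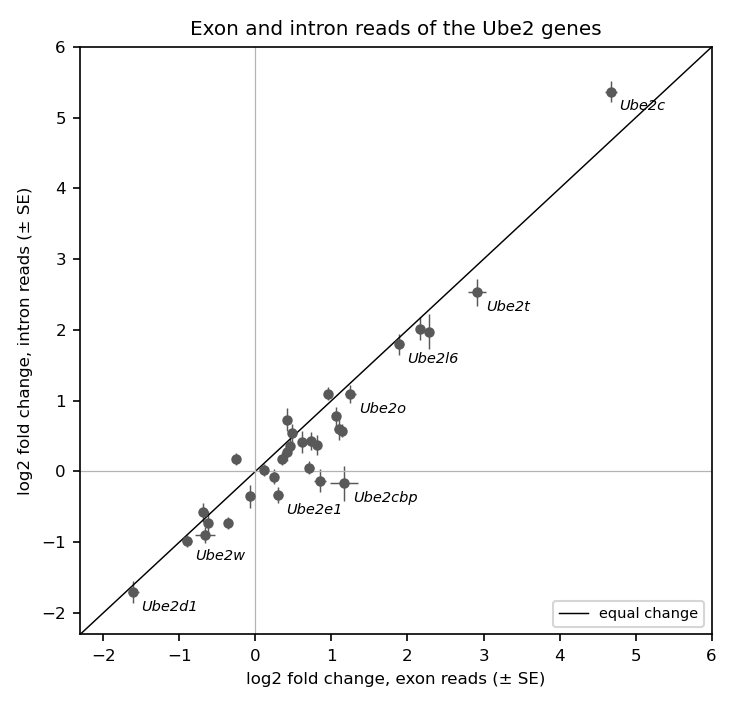
Log2 fold change of exon reads (horizontal) and intron reads (vertical), each scaled on its own, for the 32 Ube2 genes with enough intron reads, with approximate SE bars and a line of equal change. Ube2c, Ube2t and Ube2l6 rise in both, Ube2d1 and Ube2w fall in both, and Ube2e1 lies right of 0 in exons and below 0 in introns.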

How the data were processed

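Polyadenylated RNA was sequenced as paired 75 bp reads, per the labels' protocols. The authors deposited whole-number read counts per gene, as total and unique gene reads split into exon and intron reads, and TPM per gene, per the file headers. The submitters' processing notes name GRCh37 and GRCm38. The sources used here do not name the aligner, counting tool or strand setting. Of the 37 members 36 had the coordinates of GENCODE M21 (GRCm38), and those of the files are printed.

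Total gene reads were tested over all genes with edgeR 4.0.16 in R 4.3.3 (glmQLFit, robust, glmQLFTest, two-sided) after TMM scaling and filterByExpr, with Benjamini-Hochberg adjustment over the 18303 genes tested. The fit was also run on simulated counts in which few genes changed. In these data 78.1% of genes were called, so that simulation cannot check the scaling or the error rate here. CPM values use TMM-scaled library sizes, and each SE was derived from the fold change and its F statistic. Within groups, Spearman correlations were 0.991 to 0.995 across genes, and replicates differed by more than sampling noise (smallest median chi-square ratio 2.83). Alternatives were unique, exon or intron reads, RLE, upper quartile or no composition scaling, no count filter, DESeq2 1.42.0, the replicate number as a block, and leaving out each library.

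Members and lists were chosen with earlier results of these data known. Every member could be named, but some genes, a member among them, are counted and not reported here by name. Values in each library are given for members called at 2-fold or more and for the member with the smallest p in each role, and from each pathway list the 2 tested genes with the smallest p. Library values of Ube2d3 and Ube2h, and the names of the markers Sdc1, Rsad2, Aqp5, Amy1, Bhlha15 and Dcpp2, were added after their values were seen. Other genes outside this rule are said to be named after their values were seen, or are the members' direct partners (Anapc16, Usp18, Uba7, Fancg, Derl2, Rmnd5a and Rbck1), also chosen after their values were seen.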

Additional observations from a re-analysis of the deposited data

How the results depend on the processing

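Across the 15 alternatives the number of members higher with elemental diet ranged from 16 to 25 and the number lower from 6 to 10, each within 1.5 times the values given. Leaving out each library gave 23 to 24 higher and 7 to 8 lower. Of the 33 tested members 22 (16 higher, 6 lower) kept their direction and call throughout. Upper quartile scaling, whose median over all genes lay -0.27 from that of TMM, reversed Ube2d2a (-0.13), Ube2e1 (-0.033) and Ube2z (-0.26), and library totals alone reversed the same 3 (-0.16, -0.069 and -0.30). Intron reads reversed Ube2d3 (-0.075), Ube2e1 (-0.34), Ube2a (-0.13), Ube2cbp (-0.17), Ube2z (-0.35) and, to a positive value, Ube2r2 (0.17). Ube2z also turned with unique reads (-0.027) and exon reads (-0.073), and ranged from -0.027 to 0.052 without single libraries. The cause was not tested. Ube2d2a was not called without saline library 2 (adjusted p = 0.055).

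The titles number the libraries 1 to 3 in each group. Deviations from the group means correlated at 0.12, -0.01 and 0.06 between libraries of the same number, and not every library correlated best with its own number. These values cannot tell whether libraries of the same number share anything else. With the number as a replicate block 24 members were higher and 8 lower, and no member's call changed.

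Depth limited only Ube2ql1, Ube2u, Ube2d2b and the 2 members without reads; without the count filter 35 members were tested and 25 were higher. Counting error does not cover reads shared between copies.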
